A study of Homo sapiens with 6 samples.

Results

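The AP-1 family of transcription factors was followed through RNA sequencing of MDA-MB-231 cells, a human cell line from a triple-negative breast cancer (TNBC). The 9 genes described, FOS, FOSB, FOSL1, FOSL2, JUN, JUNB, JUND, ATF3 and MAFF, were found in the tables by name. No rule on values was applied, but the family was chosen with earlier results of these data known. The 9 genes are thus not a set picked blind to the data. Each gene was found once in both count tables. They list 41471 gene symbols for the CDK16 knockdown experiment and 34157 for the Rebastinib (Reb) experiment. In the knockdown experiment, cells stably carried a lentiviral scramble shRNA, CDK16-sh1 or CDK16-sh2, and the infected cells had been sorted by flow cytometry into stable lines. An shRNA silences the transcripts that its processed strand matches, and CDK16 is an atypical cyclin-dependent kinase. In the other experiment, cells received DMSO, 1 µM Reb or 5 µM Reb for 48 h. Reb is a kinase inhibitor known for its action on BCR-ABL and TIE2, and the study used it against CDK16. Each of the 6 conditions had 1 library, so no difference below has a replicate check.

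AP-1 is a dimer of basic leucine zipper (bZIP) proteins. FOS proteins do not form stable dimers with each other and need a JUN protein as partner, whereas JUN proteins also form dimers among themselves. The dimers bind a short palindrome, the TPA response element (TRE), or the related cyclic AMP response element (CRE). Many family members are immediate-early genes, which are transcribed within minutes of a growth signal or stress without new protein synthesis. FOSL1, which encodes FRA-1, is known as a gene of high level in mesenchymal-like breast cancer cells such as MDA-MB-231.

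On GRCh38, the deposited tables place FOS on chromosome 14 from 75278774 to 75282230 and FOSB on chromosome 19 from 45467995 to 45475179, both on the plus strand. FOSL1 lies on chromosome 11 from 65892049 to 65900573 on the minus strand, and FOSL2 on chromosome 2 from 28392448 to 28417312 on the plus strand. JUN lies on chromosome 1 from 58780788 to 58784327 on the minus strand. JUNB is on chromosome 19 from 12791496 to 12793315 on the plus strand, and JUND on the same chromosome from 18279760 to 18281622 on the minus strand. ATF3 extends on chromosome 1 from 212565334 to 212620777 and MAFF on chromosome 22 from 38200767 to 38216511, both on the plus strand. JUN, JUNB and JUND are each counted over 1 block of exon, the intronless form for which these genes are known. The exons of the other members form 3 to 7 blocks. No member shared exon bases with another listed gene except JUNB, which overlaps HOOK2 on the opposite strand.

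Promoter sequences from RefSeq (GRCh38.p14), each 300 bases long with 250 bases before and 50 after a start site, were found for 8 of the 9 genes, all but FOSL1. ATF3 and MAFF have 2 start sites each, which gives 10 promoters. They were searched on both strands for the TRE (TGANTCA), the CRE (TGACGTCA), the CRE half-site TGACG that the full CRE contains, and the CArG box, by which serum response factor reads growth signals at FOS. The half-site was found in 7 of the 10 promoters, 1 each of FOS, FOSB, FOSL2, JUN, JUNB, JUND and MAFF, against 24.6% of 35116 RefSeq promoters. The full CRE was in 2, those of JUND and MAFF, against 1.85% of all promoters. The TRE was in 1, that of FOSL2, against 7.71%. No CArG box was within these windows of the members, and 1.29% of all promoters held one. The promoters of the 5 members that were at least 2-fold higher at 5 µM Reb are printed because these members moved together there. Capitals mark the half-site, and for ATF3, which has none, the upstream start site is shown.
FOS, chr14:75278578-75278877, plus strand: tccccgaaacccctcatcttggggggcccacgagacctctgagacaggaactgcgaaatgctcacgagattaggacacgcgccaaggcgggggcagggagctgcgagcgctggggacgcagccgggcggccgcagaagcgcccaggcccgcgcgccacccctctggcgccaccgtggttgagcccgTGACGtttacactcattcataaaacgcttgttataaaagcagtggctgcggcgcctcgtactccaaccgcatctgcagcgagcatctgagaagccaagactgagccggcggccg
FOSB, chr19:45467746-45468045, plus strand: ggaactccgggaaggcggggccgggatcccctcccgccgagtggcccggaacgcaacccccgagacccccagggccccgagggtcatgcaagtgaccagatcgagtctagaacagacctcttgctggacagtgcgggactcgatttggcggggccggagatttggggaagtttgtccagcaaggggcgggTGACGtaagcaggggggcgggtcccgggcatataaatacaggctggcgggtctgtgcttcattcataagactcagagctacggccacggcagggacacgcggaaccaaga
JUN, chr1:58783998-58784297, minus strand: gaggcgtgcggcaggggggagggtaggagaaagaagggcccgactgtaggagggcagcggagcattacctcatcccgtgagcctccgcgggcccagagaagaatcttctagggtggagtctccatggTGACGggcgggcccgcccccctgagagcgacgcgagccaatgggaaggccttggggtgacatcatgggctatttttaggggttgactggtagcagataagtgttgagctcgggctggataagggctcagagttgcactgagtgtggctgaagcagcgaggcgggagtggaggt
JUNB, chr19:12791236-12791535, plus strand: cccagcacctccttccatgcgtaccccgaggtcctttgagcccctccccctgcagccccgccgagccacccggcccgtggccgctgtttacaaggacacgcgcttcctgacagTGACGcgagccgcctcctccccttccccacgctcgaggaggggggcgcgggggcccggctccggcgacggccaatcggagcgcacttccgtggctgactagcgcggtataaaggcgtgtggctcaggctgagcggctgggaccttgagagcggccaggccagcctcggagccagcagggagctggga
ATF3, chr1:212565157-212565456, plus strand: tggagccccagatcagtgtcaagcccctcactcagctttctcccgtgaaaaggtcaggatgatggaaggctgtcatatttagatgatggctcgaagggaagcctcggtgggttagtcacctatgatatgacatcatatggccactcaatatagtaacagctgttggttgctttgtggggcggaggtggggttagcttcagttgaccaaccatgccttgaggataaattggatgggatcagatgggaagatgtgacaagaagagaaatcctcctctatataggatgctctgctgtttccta
The half-site began 64 bases before the start in FOS, at −64, and at a similar place in FOSB, at −60. It began at −123 in JUN and at −137 in JUNB. A match of letters is a description and does not show that a factor binds there.

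Total counts per library ranged from 25838443 in scramble to 50303269 in DMSO. CDK16 itself was lower with both hairpins, by a log2 fold change of −1.52 (counting interval −1.61 to −1.43) in CDK16-sh1 and −1.82 (−1.93 to −1.71) in CDK16-sh2. VIM, CD44 and AXL, markers of this line, were between 31.8 and 833 RPKM, and ESR1, PGR and CDH1 stood at or below 0.174 RPKM in every library. ERBB2 reached 6.54 RPKM and EPCAM 4.30. Of markers of other cell types, PTPRC of leukocytes, KRT5 of myoepithelium and PECAM1 of endothelium stayed at or below 0.395 RPKM, and ACTA2 at or below 1.84. At 5 µM Reb, mitochondrial transcripts took 16.4% of counts against 7.19% in DMSO, and the 100 most counted genes took 35.3% against 24.3%. In CDK16-sh2 they took 16.2% and 31.3%, against 11.3% and 25.8% in scramble. The part of these shifts in the values below was not tested beyond the scalings given.

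Levels are given in RPKM, which divides counts by exon length and library depth, so that genes of different length can be compared. In bulk RNA, a change in the share of cells that express a gene and a change in its RNA per cell cannot be told apart. FOSL1 was the member with the highest level in 5 of the 6 libraries. Its level was 453 RPKM in scramble, 1001 in CDK16-sh1 and 988 in CDK16-sh2, where it ranked 77, 42 and 39 among the 15295 genes tested, those averaging 1 or more in CPM (counts scaled to the library's depth). It was 181 RPKM in DMSO, 111 at 1 µM and 67.7 at 5 µM Reb, where it ranked 217, 385 and 705 among 15655 genes. Both hairpin libraries lay above scramble and both Reb libraries below DMSO. FOSL2, which encodes the related FRA-2, was at 17.6, 22.9 and 11.3 RPKM in scramble, CDK16-sh1 and CDK16-sh2, and at 12.0, 6.20 and 4.89 in DMSO, 1 µM and 5 µM Reb. It was thus lower than FOSL1 in RPKM by over an order of magnitude in every library. For both genes the order of the doses depended on the scaling. After scaling by edgeR's TMM method, used for the fold changes below, FOSL1 was at 175 CPM at 1 µM and 178 at 5 µM. FOSL2 was then at 37.0 CPM at 1 µM and 48.7 at 5 µM.

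FOS and FOSB, the classical immediate-early members, were at low levels in most libraries. FOS was at 0.980 RPKM in scramble, 1.57 in CDK16-sh1 and 0.236 in CDK16-sh2, from 82, 162 and 21 counts. In the Reb experiment it was at 3.84 RPKM in DMSO, 0.663 at 1 µM and 12.1 at 5 µM, from 626, 106 and 1476 counts. The level at 1 µM lay below DMSO and that at 5 µM above it. FOSB was at 0.272, 3.41 and 0.144 RPKM in scramble, CDK16-sh1 and CDK16-sh2, from 39, 605 and 22 counts, and the CDK16-sh1 library stood apart from the other two. With Reb it was at 0.444, 0.299 and 0.832 RPKM in DMSO, 1 µM and 5 µM, from 124, 82 and 174 counts.

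Among the JUN genes, JUN was the highest in every library. JUN was at 55.4 RPKM in scramble, 130.1 in CDK16-sh1 and 72.9 in CDK16-sh2. It was at 73.5 in DMSO and 71.9 at 1 µM Reb, which were close, and at 191 at 5 µM. JUNB, often a weaker activator than JUN, was at 15.3, 62.6 and 12.0 RPKM in scramble, CDK16-sh1 and CDK16-sh2, with CDK16-sh1 apart from the others. In the Reb experiment JUNB was at 16.0 RPKM in DMSO, 7.46 at 1 µM and 65.6 at 5 µM, which again placed 1 µM below and 5 µM above DMSO. HOOK2, the overlapping gene on the other strand, had 968, 1909 and 1071 counts in scramble, CDK16-sh1 and CDK16-sh2. It had 3659, 3060 and 2327 in DMSO, 1 µM and 5 µM Reb. These counts are not scaled for depth. Library totals after TMM scaling were 58317204 in DMSO, 59275133 at 1 µM and 27051941 at 5 µM. The lower HOOK2 count at 5 µM is thus not by itself a lower level. The strand setting of the counting is not given in the sources used here, so reads of the shared bases cannot be assigned. JUND, the member known for steady expression in resting cells, was at 26.1, 33.2 and 40.1 RPKM in the knockdown experiment. It was at 33.3, 19.8 and 14.2 RPKM in DMSO, 1 µM and 5 µM Reb. Both Reb libraries lay below DMSO, and the order of the doses depended on the scaling, with 30.8 CPM at 1 µM and 36.9 at 5 µM after TMM scaling.

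ATF3, a stress-induced member that pairs with JUN proteins, was at 0.814, 2.74 and 0.504 RPKM in scramble, CDK16-sh1 and CDK16-sh2. It was at 1.57 RPKM in DMSO, 1.95 at 1 µM and 16.6 at 5 µM Reb, and only the last lay far from its control. MAFF, a small MAF protein without an activation domain of its own, was at 15.0, 22.4 and 16.7 RPKM in the knockdown experiment and at 16.2, 7.93 and 19.5 with DMSO, 1 µM and 5 µM Reb.

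**Figure D1:**
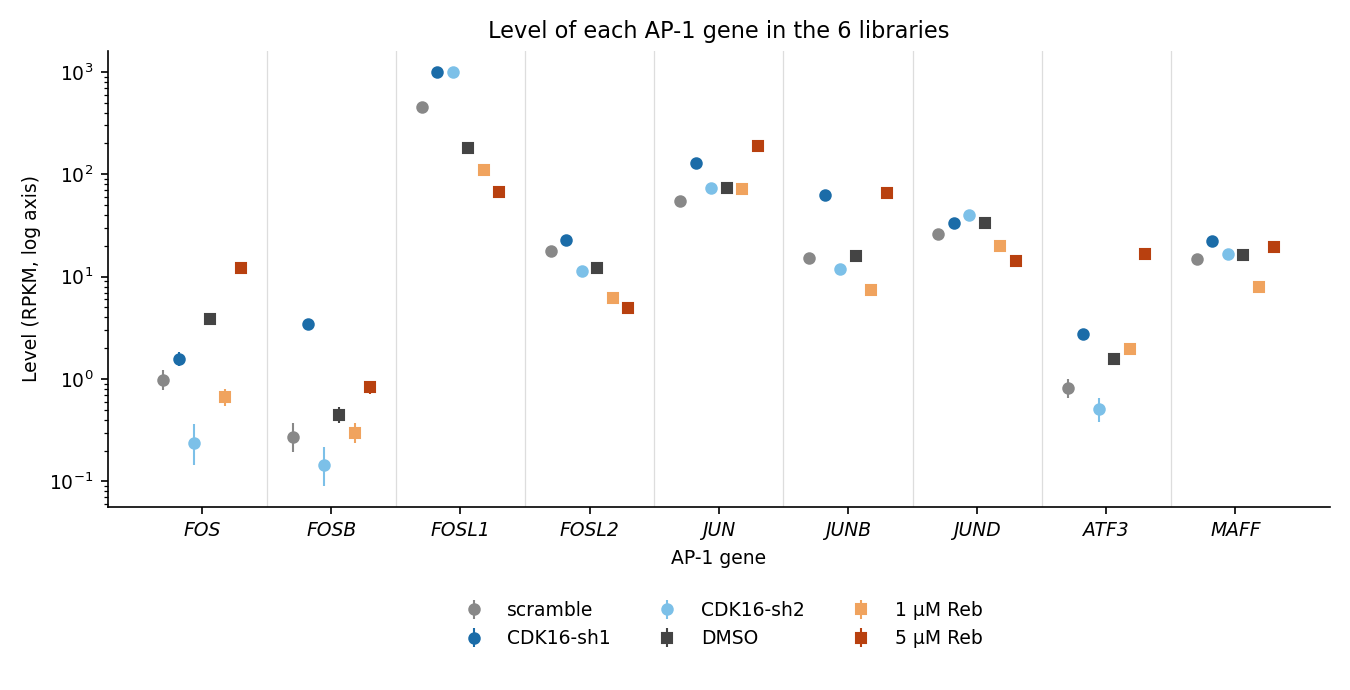
Level of each AP-1 gene in RPKM on a log axis, 1 point per library (circles for the knockdown experiment, squares for the Reb experiment), with bars for 95% counting intervals. FOSL1 and JUN are the highest genes in each library, and FOSB in CDK16-sh1 and ATF3 at 5 µM Reb stand far above their controls.

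The order of levels was FOSL1, JUN, JUND, FOSL2, JUNB, MAFF, FOS, ATF3 and FOSB in scramble, and FOSL1, JUN, JUND, MAFF, JUNB, FOSL2, FOS, ATF3 and FOSB in DMSO. Neighbours whose 95% Poisson intervals overlapped were JUNB and MAFF in both controls, and FOS and ATF3 in scramble. In CDK16-sh1 JUNB moved up to the third place, and FOSL2 and MAFF overlapped below it. In CDK16-sh2 the overlapping neighbours were JUNB with FOSL2 and FOS with FOSB. At 1 µM Reb only MAFF and JUNB overlapped. At 5 µM Reb the order was JUN, FOSL1, JUNB, MAFF, ATF3, JUND, FOS, FOSL2 and FOSB, and the intervals of FOSL1 and JUNB overlapped. These intervals cover counting error of reads only, since each rests on 1 count from 1 library. The libraries also carried no stated molecular identifiers that would separate reads from molecules.

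The make-up of the family changed most at 5 µM Reb. The RPKM of the 9 genes summed to 585, 1280.1 and 1142 in scramble, CDK16-sh1 and CDK16-sh2, and to 338, 227 and 392 in DMSO, 1 µM and 5 µM Reb. FOSL1 made up 77.5%, 78.2% and 86.5% of the sum in the 3 knockdown libraries, and 53.6%, 48.8% and 17.3% in DMSO, 1 µM and 5 µM Reb. JUN made up 21.7%, 31.6% and 48.6% in the same Reb libraries. The ratio of the FOS group (FOS, FOSB, FOSL1 and FOSL2) to the JUN group (JUN, JUNB and JUND) was 4.88 in scramble, 4.56 in CDK16-sh1 and 8.0 in CDK16-sh2. It was 1.61 in DMSO, 1.19 at 1 µM and 0.316 at 5 µM Reb, the only library in which transcripts of the JUN group exceeded those of the FOS group. A ratio within a library does not depend on its scaling. ATF3 made up 4.23% of the sum at 5 µM Reb against 0.465% in DMSO. The 2 control libraries also differed in these shares, and the tables were made separately with different numbers of gene symbols, so levels were compared within an experiment only.

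**Figure D2:**
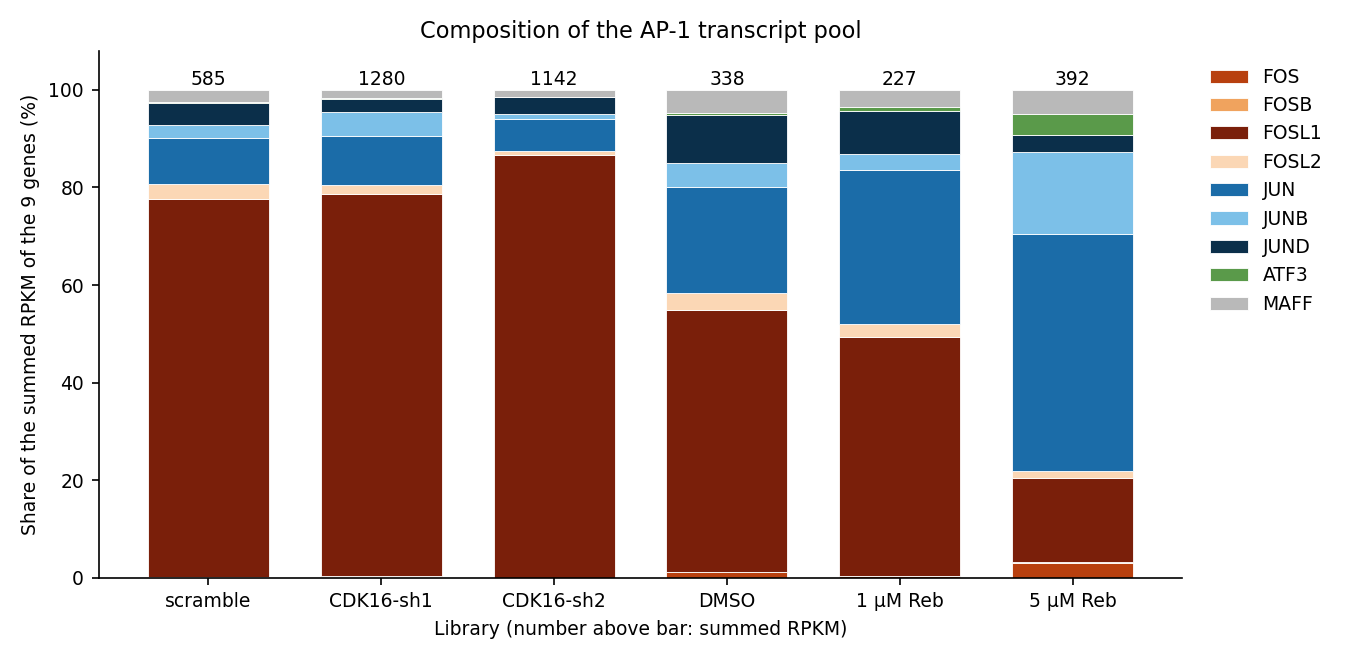
Share of each AP-1 gene in the summed RPKM of the 9 genes, 1 stacked bar per library, with the sum in RPKM above the bar. FOSL1 takes 53.6% in DMSO and 17.3% at 5 µM Reb, where JUN takes 48.6% and JUNB 16.7%.

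In the CDK16-sh1 library every member was higher than in scramble. Log2 fold changes were taken from counts scaled by edgeR's TMM method with a prior count of 2, and bracketed ranges are 95% Clopper-Pearson intervals of the counts. FOSB differed most, by 3.62 (3.21 to 4.18), which was the highest log2 fold change of all 15295 genes tested in that library. JUNB followed with 2.06 (1.94 to 2.18) and ATF3 with 1.76 (1.44 to 2.14). JUN was higher by 1.26 (1.22 to 1.31) and FOSL1 by 1.17 (1.15 to 1.20) on the same scale. These were the 5 members at least 2-fold higher, and none was at least 2-fold lower, where 4.33% of all genes tested were at least 2-fold higher and 6.86% lower. The other members, FOS, MAFF, FOSL2 and JUND, had log2 fold changes from 0.38 to 0.69. The median over the 9 members was 1.17 against −0.00 over all genes.

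In the CDK16-sh2 library the family did not move in one direction. FOSL1 was higher by 1.32 (1.30 to 1.34) and was the only member past 2-fold upward, where 2.20% of all genes were. FOS was lower, with a log2 fold change of −1.77 (−2.62 to −1.15), and was the only member past 2-fold downward, where 7.62% of all genes were. JUND was at 0.82 and JUN at 0.59, both above 0 by more than counting error. MAFF was at 0.35 and FOSL2 at −0.44. The intervals of FOSB, JUNB and ATF3, the 3 members that differed most in CDK16-sh1, included 0, with log2 fold changes of −0.68, −0.16 and −0.48. For JUNB and ATF3 the upper ends, 5.0e-05 and 0.008, lay next to 0. With library totals JUNB was at −0.35 and ATF3 at −0.67. The median over the members was −0.16 against 0.02 over all genes. The share of all genes higher or lower depended on the scaling, and with library totals it was 0.994% and 11.1%.

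Both hairpin libraries can be set against each other without the scramble counts of a gene, although scramble entered the TMM scaling. FOSL1 differed little between them, by 0.15 (0.13 to 0.17) on the log2 scale in CDK16-sh2 relative to CDK16-sh1. With library totals its log2 fold changes against scramble were 1.13 in CDK16-sh2 and 1.14 in CDK16-sh1. For FOSB the log2 difference was −4.29 (−5.08 to −3.79) and for FOS −2.47 (−3.29 to −1.90). For ATF3 and JUNB the log2 difference was −2.24 (−2.71 to −1.87) and −2.21 (−2.34 to −2.09). It was −0.67 for JUN, −0.85 for FOSL2 and 0.44 for JUND. With 1 library for each hairpin, a difference of hairpin and a difference between cultures cannot be told apart.

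At 1 µM Reb, 8 of the 9 members were lower than in DMSO by more than counting error, and ATF3 was higher, by 0.25 (0.04 to 0.47). FOS differed most, with a log2 fold change of −2.56 (−2.90 to −2.29), the 30th lowest of 15655 genes tested. JUNB was at −1.15 (−1.29 to −1.02), MAFF at −1.08 (−1.16 to −1.01) and FOSL2 at −1.01 (−1.08 to −0.93), whose interval spans the 2-fold limit. These 4 were at least 2-fold lower and none was at least 2-fold higher, where 1.92% of all genes were at least 2-fold lower and 1.28% higher. JUND was at −0.80, FOSL1 at −0.76 and FOSB at −0.61. JUN was close to DMSO, with a log2 fold change of −0.08. The median over the members was −0.80 against 0.00 over all genes.

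At 5 µM Reb, 6 of the 9 members were higher than in DMSO by more than counting error and 3 were lower. ATF3 was higher by 4.08 (3.92 to 4.26) on the log2 scale, JUNB by 2.72 (2.64 to 2.81) and FOS by 2.34 (2.21 to 2.48). JUN was higher by 2.07 (2.04 to 2.10) and FOSB by 1.58 (1.26 to 1.94). These 5 members were at least 2-fold higher and none was at least 2-fold lower, in a library where 23.6% of all genes were at least 2-fold higher and 27.2% lower. Of all genes, 0.996% lay above ATF3, 3.42% above JUNB and 13.0% above FOSB. MAFF was at 0.95, just short of 2-fold. FOSL1 was at −0.73, FOSL2 at −0.61 and JUND at −0.54, within the middle of the distribution of all genes. With library totals in place of TMM the median of all genes shifted by −0.68, the split of all genes became 11.7% higher and 43.4% lower, and FOSL1, FOSL2 and JUND were at least 2-fold lower while FOSB was not 2-fold higher. Every member kept the sign of its log2 fold change under that scaling.

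The difference between doses does not use the DMSO counts of a gene, although DMSO entered the TMM scaling. It was largest for FOS. FOS was higher at 5 µM than at 1 µM by 4.90 (4.65 to 5.23) on the log2 scale, JUNB by 3.87 (3.76 to 4.00) and ATF3 by 3.83 (3.68 to 3.99). FOSB, JUN and MAFF were higher by 2.18, 2.15 and 2.04. FOSL1 differed by 0.03, with an interval from −0.02 to 0.08, and FOSL2 and JUND by 0.40 and 0.26. With library totals in place of TMM, FOSL1 was at −0.71 at 1 µM and −1.42 at 5 µM against DMSO. On that scale FOSL2 was at −0.96 and −1.30 and JUND at −0.74 and −1.23, so these differences between doses depended on the scaling.

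**Figure D3:**
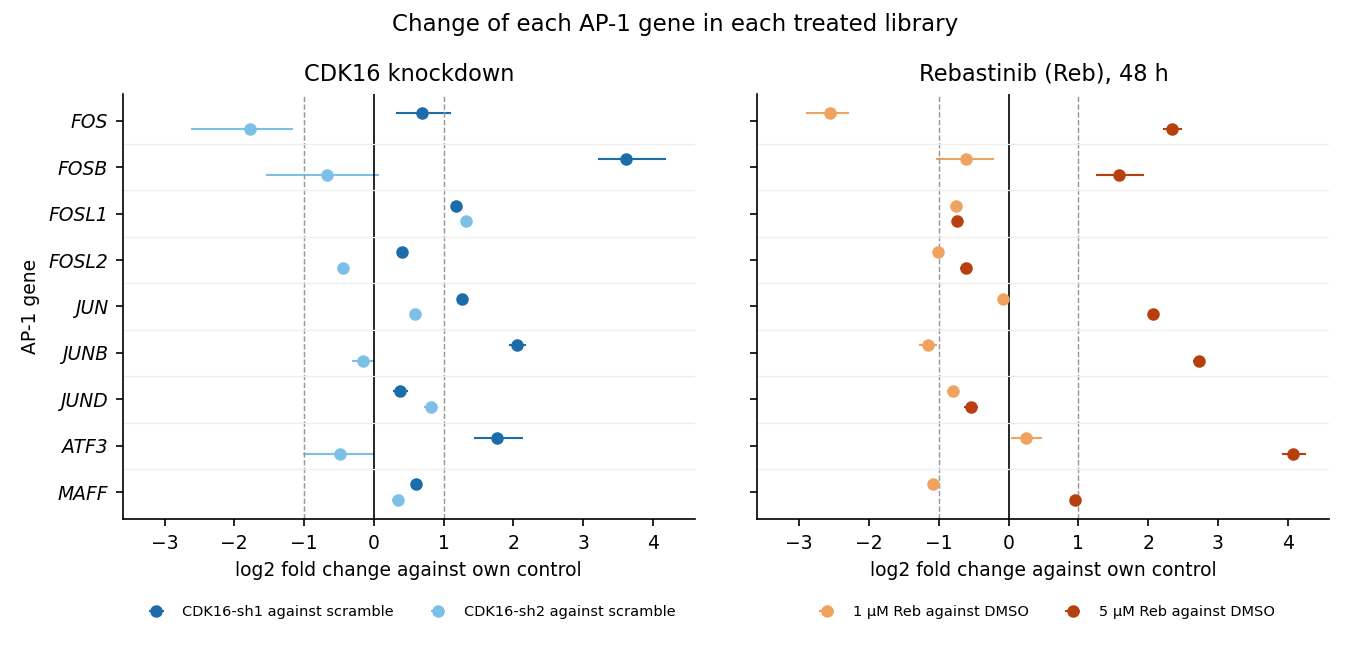
Log2 fold change of each AP-1 gene against its own control, for CDK16-sh1 and CDK16-sh2 on the left and 1 µM and 5 µM Reb on the right, with 95% counting intervals as bars and dashed lines at 2-fold. FOSB in CDK16-sh1 (3.62) and ATF3 at 5 µM Reb (4.08) lie farthest to the right, and FOS at 1 µM Reb (−2.56) farthest to the left.

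With 1 library per condition, the main test across genes took both treated libraries of an experiment as 1 group. This counts the difference between hairpins or doses as spread, and a log2 fold change can rest on 1 treated library. Of FOSB, FOSL1 and JUNB, named below, only FOSL1 was higher than scramble in CDK16-sh2 too, with FOSB at −0.68 and JUNB at −0.16. With edgeR's quasi-likelihood test and Benjamini-Hochberg adjustment, no member passed an adjusted p of 0.05 and 2-fold for the hairpins, and 0 of 15295 genes did (0%). DESeq2 also called 0 genes. At an unadjusted p under 0.05, which 2.50% of all genes had, there were 3 members: FOSB (log2 fold change 2.75, edgeR adjusted p = 0.553, and 0.530 to 1.00 over the alternatives), FOSL1 (1.25, adjusted p = 1.00) and JUNB (1.34, adjusted p = 1.00). For Reb, edgeR called 12 of 15655 genes (0.0767%) and DESeq2 18, and no member was among the calls of either tool. At an unadjusted edgeR p under 0.05, which 1.46% of genes had, there was 1 member, ATF3 (log2 fold change 3.19, adjusted p = 1.00).

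In a fit with log2(dose + 1) as a linear term, edgeR called 10.3% of all genes at an adjusted p of 0.05 and a slope of at least 1, and 24.5% without a limit on the slope. ATF3 (slope 1.64, adjusted p = 7.27e-07) and JUNB (1.12, adjusted p = 4.18e-04) were among the first. FOS (0.99, adjusted p = 0.00354) and JUN (0.84, adjusted p = 0.00907) passed only the limit on p. In the grouped fits, with either tool and any scaling or filter run, the adjusted p of these 4 genes was between 0.999 and 1.00. This fit assumes an even course over dose. The values of FOS, FOSB, JUN, JUNB and MAFF, lower at 1 µM and higher at 5 µM than in DMSO, do not follow that course. For JUN the value at 1 µM was near 0, at −0.08. The fit rests on 3 libraries with 1 degree of freedom left for the spread.

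The log2 fold changes of all genes moved with base composition. Across 15161 genes, which are not independent replicates, Pearson's r of the log2 fold change with GC content was 0.45 for CDK16-sh1 and 0.12 for CDK16-sh2. Across 15509 genes it was −0.30 at 1 µM and −0.20 at 5 µM Reb. The members are GC-rich, from 50.5% in ATF3 to 69.7% in JUND, and all but ATF3 fall in the upper 2 of 5 equal bins of genes by GC content. Once smooth trends on GC content and length were taken out, JUNB (1.5), ATF3 (1.73) and FOSB (3.41) remained at least 2-fold higher in CDK16-sh1, and JUN (0.98) and FOSL1 (0.71) did not. At 1 µM Reb FOS (−2.39) alone remained at least 2-fold lower, with JUNB at −0.89, MAFF at −0.90 and FOSL2 at −0.95. FOSL1 in CDK16-sh2 was little moved, at 1.29. At 5 µM Reb the values of the 5 higher members became larger, between 2.22 and 4.21, and MAFF passed 2-fold at 1.63. JUND in CDK16-sh1 (−0.23) and JUN at 1 µM Reb (0.05) changed sign.

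**Figure D4:**
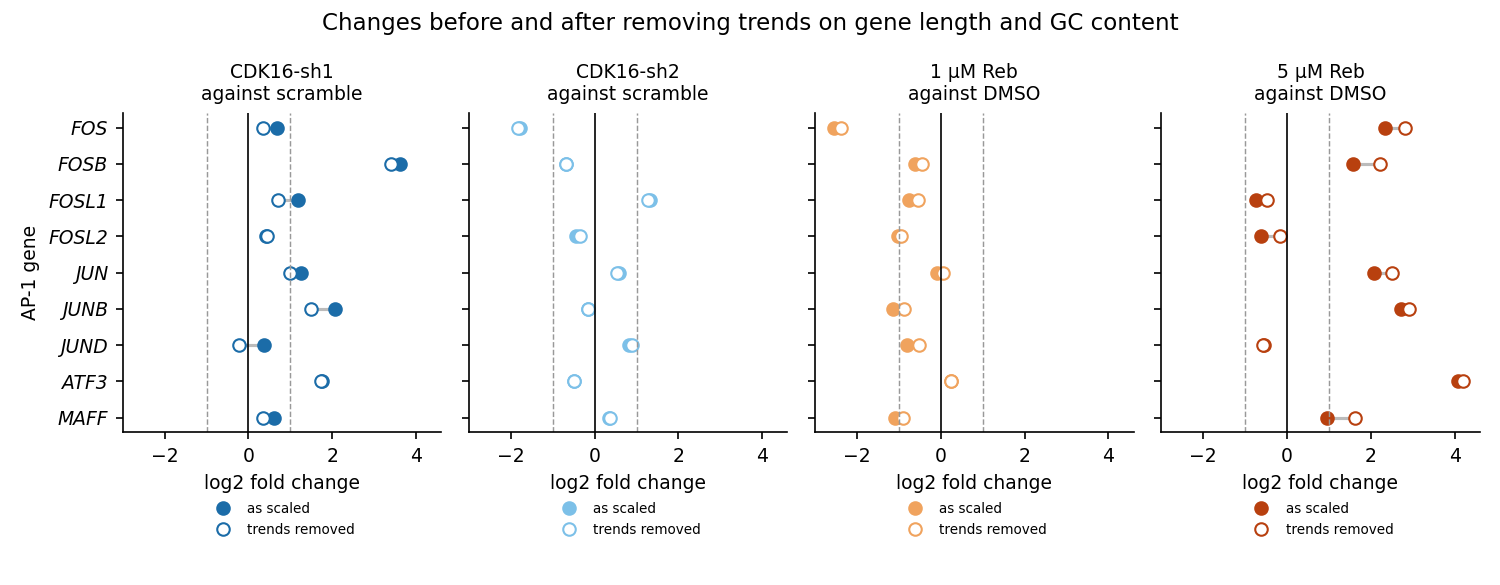
Log2 fold change of each AP-1 gene as scaled (filled) and after smooth trends on gene length and GC content were removed (open), 1 panel per treated library, with dashed lines at 2-fold. FOSL1 in CDK16-sh1 goes from 1.17 to 0.71 and JUNB at 1 µM Reb from −1.15 to −0.89, while FOSB in CDK16-sh1 and ATF3 at 5 µM Reb stay far to the right.

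Other immediate-early genes, a list of 21 that includes EGR1 and the IER and KLF genes, were looked at beside the members. Of the 14 that passed the filter in the knockdown experiment, 6 were at least 2-fold higher and 0 lower in CDK16-sh1. That is 42.9% and 0% against 4.33% and 6.86% of all genes. The median log2 fold change of the 14 was 0.50. In CDK16-sh2 2 were higher and 1 lower, with a median of −0.10, or 14.3% and 7.14% against 2.20% and 7.62%. Of the 16 that passed in the Reb experiment, 0 were higher and 3 lower at 1 µM, with a median of −0.51. That is 0% and 18.8% against 1.28% and 1.92% of all genes. At 5 µM 10 were higher and 1 lower, with a median of 1.86. That is 62.5% and 6.25% against 23.6% and 27.2% of all genes. ARC (18, 8 and 5018 counts in DMSO, 1 µM and 5 µM Reb) and EGR2 (18, 26 and 125) are among the 10. Both passed the filter only through the 5 µM library, where they were high, so their part in this share was fixed by the filter. TRIB1, a pseudokinase gene, was higher in both hairpin libraries (log2 fold change 1.5 and 1.56), as was PPP1R15A, which encodes the stress-induced phosphatase subunit GADD34 (1.25 and 1.11). KLF2 (−0.41 and −0.35) and KLF10 (−0.21 and −0.51) were lower in both hairpin libraries. With Reb, GADD45B, a gene of the stress response, was at 0.49 and 4.54, and KLF10 at 0.18 and 2.09. MCL1 was at −0.42 and −0.11, and PPP1R15A at −0.81 and −0.00.

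Textbook AP-1 target genes, a list of 40 proteases, cytokines, adhesion molecules and growth factors, were more often lower than higher with Reb. Of 36 past the filter, 14 were at least 2-fold lower and 0 higher at 1 µM, with a median of −0.64. That is 38.9% and 0% of the list against 1.92% and 1.28% of all genes. At 5 µM 15 were lower and 7 higher, with a median of −0.78. That is 41.7% and 19.4% of the list against 27.2% and 23.6% of all genes. IL1A, with 297, 36 and 1 counts in DMSO, 1 µM and 5 µM Reb, passed the filter only through DMSO. It is among the genes lower at each dose. The cytokine genes CXCL8, with 4967, 160 and 172 counts in DMSO, 1 µM and 5 µM Reb, and IL1B, with 9469, 742 and 177, were lower at each dose. MMP1, a collagenase gene often used as a reporter of AP-1, had 70867 counts in DMSO, 28057 at 1 µM and 126879 at 5 µM, with log2 fold changes of −1.36 and 1.95. MMP1 was named after its values were seen. In CDK16-sh1 6 of 35 targets were at least 2-fold higher and 2 lower, or 17.1% and 5.71% against 4.33% and 6.86% of all genes, with a median of 0.31. In CDK16-sh2 4 were higher and 5 lower, or 11.4% and 14.3% against 2.20% and 7.62%, with a median of 0.03. IL6 was higher with both hairpins (2.91 and 0.97) and HMOX1 also (0.98 and 0.75), whereas ITGA2 (−1.07 and −0.87) and THBS1 (−0.64 and −2.44), genes of cell adhesion, were lower.

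Among 34 other bZIP genes, the possible partners and competitors, 27 passed the filter in the knockdown experiment and 28 with Reb. In CDK16-sh1 2 were at least 2-fold higher and 1 lower, or 7.41% and 3.70% against 4.33% and 6.86% of all genes. In CDK16-sh2 2 were higher and 0 lower, or 7.41% and 0% against 2.20% and 7.62%. At 1 µM Reb 0 were higher and 2 lower, or 0% and 7.14% against 1.28% and 1.92%. At 5 µM 11 were higher and 5 lower, or 39.3% and 17.9% against 23.6% and 27.2% of all genes. CEBPD was higher in both hairpin libraries (1.66 and 1.45), with MAFK at 0.65 and 0.82. JDP2, a repressor that binds JUN, was lower with both hairpins (−1.18 and −0.60), from 597, 317 and 365 counts, and higher with both Reb doses (0.63 and 1.54). ATF1 was at −0.39 and −0.35 with the hairpins. With Reb, CREB5 was at 0.83 and 1.75, BATF3 at −0.16 and −1.76, and CEBPB at −0.89 and −0.37.

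Upstream of AP-1, 39 of 40 genes for MAP kinases, their activators and the factors that transcribe FOS and JUN passed the filter. In CDK16-sh1 1 was at least 2-fold higher and 4 lower, or 2.56% and 10.3% against 4.33% and 6.86% of all genes. In CDK16-sh2 0 were higher and 5 lower, or 0% and 12.8% against 2.20% and 7.62%. At 1 µM Reb 1 was higher and 1 lower, or 2.56% each against 1.28% and 1.92%. The higher one was MAP2K6, with 30, 214 and 285 counts in DMSO, 1 µM and 5 µM Reb. It passed the filter only through the Reb libraries, where it was high, and is also among those higher at 5 µM. At 5 µM 11 were higher and 8 lower, or 28.2% and 20.5%, close to the 23.6% and 27.2% of all genes. MKL2, a coactivator of serum response factor, was lower with both hairpins (−1.20 and −1.19), as was MEF2C (−1.32 and −1.17). MAP2K3, an activator of p38, was at 0.93 and 0.74 with the hairpins, and ZFP36L1, which promotes decay of AU-rich messenger RNA, at 0.64 and 0.50. With Reb, MAPK8, which encodes the JUN kinase JNK1, was at 0.26 and 2.45 and MEF2A at 0.34 and 1.93, while RPS6KA5 (−0.66 and −0.80) and ELK3 (−0.66 and −0.82) were lower at both doses. Transcript levels do not measure the activity of a kinase.

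The members did not share 1 pattern. By the Euclidean distance between their 4 log2 fold changes, FOSL1 and JUND were the closest pair (0.96) and FOSL1 and ATF3 the farthest (5.27). Among 10554 genes that averaged 5 CPM or more in both experiments, EGR1, another immediate-early gene, was the nearest to FOS (1.79), with log2 fold changes of 2.02, −0.95, −3.34 and 2.73 in CDK16-sh1, CDK16-sh2, 1 µM and 5 µM Reb, followed by MYLIP and NRIP1. The nearest to JUN were RP11-572P18.1 (0.11), the ribosomal protein gene RPL18 (0.31) and the pseudogene RPL12P16 (0.35), all with a log2 fold change of at least 2.06 at 5 µM Reb. The nearest to FOSL1 were C18orf21, C1orf56 and REXO1, at distances of 0.66. The points share their control libraries, so these distances are descriptions only.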

How the data were processed

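Total RNA of 6 MDA-MB-231 samples was sequenced by a company for the authors as stranded mRNA libraries, 1 per condition. Per the labels' processing notes, Trimmomatic, featureCounts and Subread 1.5.1 were used with GRCh38, and the aligner, annotation release and strand setting are not given in the sources used here. The authors deposited raw read counts, whole numbers listed by gene symbol beside exon positions and summed exon length. The deposited RPKM values are the same counts divided by that length and by the library's total, which was checked for every library. GENCODE 29 transcripts gave GC content, and RefSeq gave promoters.

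Counts were scaled by TMM in edgeR 4.0.16 (R 4.3.3). Genes averaging 1 CPM or more in an experiment were kept, which all 9 members passed, and log2 fold changes used a prior count of 2. The limit of 2-fold is that of the study's methods. Tests were edgeR's quasi-likelihood test with both treated libraries as 1 group, and DESeq2 1.42.0 as an alternative, each with Benjamini-Hochberg adjustment. Intervals at 95% come from the exact binomial (Clopper-Pearson) for a pair of counts or from the Poisson for 1 count (scipy 1.17.1), and cover counting error only. Trends on GC content and length were removed with splines of 4 degrees of freedom. Named genes are the 9 members, CDK16, from each other list up to 2 decreases and 2 increases of the same direction in both treated libraries, averaging 5 CPM or more, and the 3 genes nearest to FOS, FOSL1 and JUN. ARC, EGR2, IL1A and MAP2K6 are named besides, for how they passed the filter. The members and lists were chosen with earlier results of these data known.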

Additional observations from a re-analysis of the deposited data

Results flagged for a closer look

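Several members had log2 fold changes of opposite sign in the treated libraries of the same experiment, each beyond counting error. Between the hairpins these were FOS (0.69 for CDK16-sh1, −1.77 for CDK16-sh2) and FOSL2 (0.41, −0.44). Between 1 µM and 5 µM Reb they were FOS (−2.56 and 2.34), FOSB (−0.61 and 1.58), JUN (−0.082 and 2.07), JUNB (−1.15 and 2.72) and MAFF (−1.08 and 0.95). With 1 library per condition the difference between hairpins or doses was not tested against the spread of replicates. After trends on length and GC content were removed, JUN at 1 µM Reb was at 0.05, so its change of sign depended on that setting.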

How the results depend on the processing

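The limits are those of 1 library per condition: intervals hold counting error only, and FOS, FOSB and ATF3 rest on fewer than 100 counts in scramble. No paired analysis was possible because each condition has 1 library and the labels give no shared replicate numbers. Leaving out a library was not run, since it would remove a condition. Of the 36 log2 fold changes of the members, 16 were past 2-fold.

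Scaling by library totals, DESeq2 size factors, a prior count of 0.5, no filter on low counts, RPKM with 0.1 added and TMM over only the 2 libraries compared, an alternative chosen after seeing the data, kept the sign of all 36. Removing trends on length and GC content kept 34. With library totals and with RPKM, 14 of the 16 stayed past 2-fold, and after removal of trends 11 did.

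With trends removed, 3 members were at least 2-fold higher in CDK16-sh1, where 2.57% of all genes were. At 1 µM Reb 1 member was at least 2-fold lower, where 1.59% of all genes were. The medians were then 0.71 in CDK16-sh1, −0.54 at 1 µM and 2.22 at 5 µM Reb. With library totals, 3 members were at least 2-fold lower at 5 µM Reb, where 43.4% of all genes were. On that scale the medians were 1.14 in CDK16-sh1, −0.35 in CDK16-sh2 and 0.89 at 5 µM. With RPKM, 3 members were again lower at 5 µM, where 41.5% of all genes were. The medians with RPKM were 1.14 in CDK16-sh1, −0.35 in CDK16-sh2 and 0.78 at 5 µM.

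A minimum mean of 5 CPM removed FOS in the knockdown experiment and FOSB in the Reb experiment. In the knockdown experiment FOSB and ATF3 passed it only through CDK16-sh1, where they were high. Their counts there were 605 and 354, against 39 and 85 in scramble and 22 and 56 in CDK16-sh2. The CDK16-sh1 median under this filter is therefore no separate check. With that minimum, 0 members were at least 2-fold lower in CDK16-sh2, where 6.52% of all genes were. With this filter the medians were 1.21 in CDK16-sh1, 0.065 in CDK16-sh2, where the sign turned, and −0.90 at 1 µM. These shifts follow from the members removed. With a linear dose term, 2 members were called in the Reb experiment against 0 in the grouped test. Beyond these constructions the cause was not tested. With library totals the unadjusted p was under 0.05 for 1 member in the knockdown experiment, FOSL1, and for 0 with Reb. In the grouped test the number of genes called for Reb was 12 with TMM, 0 with library totals and 3 with no filter on low counts.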
